A study of Mus musculus with 14 samples.

Results

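The limb bud is a core of mesenchyme covered by a thin ectoderm, and 10 transcripts of that ectoderm and of its apical ridge were followed across 14 forelimb bud transcriptomes of mouse embryos. The genes were *Trp63*, *Krt8*, *Krt18*, *Cdh1*, *Epcam*, *Esrp1*, *En1*, *Sp6*, *Sp8* and *Cldn6*. They were chosen by name, with earlier results of these data known, as markers of the tissue outside the conditional deletion. All 10 were found among the 23284 gene symbols counted and all 10 were among the 12393 genes tested. Controls (WT) were *Smad4*+/+ PrxCreT/+ and mutants were *Smad4*Δ/Δc PrxCreT/+, at E10.0 (30 somites; WT, n=3; *Smad4*Δ/Δc, n=4) and at E10.5 (35 somites; WT, n=3; *Smad4*Δ/Δc, n=4). Every embryo therefore carried the *Prrx1*-CRE transgene. Each replicate was the pair of forelimb buds of 1 embryo, on an NMRI background per the labels.

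*Prrx1*-CRE is active in limb bud mesenchyme, so in mutants both *Smad4* copies are lost in mesenchyme, whereas the ectoderm keeps a conditional copy beside the constitutive null allele. The early limb ectoderm is a simple epithelium with an overlying periderm. It sends Wnt signals to the mesenchyme, its ventral side expresses *En1* and its rim thickens into the apical ectodermal ridge, the source of FGF signals that keep the bud growing. The comparisons asked whether transcripts of this tissue differ between the genotypes, and how they change from E10.0 to E10.5. The null allele also lowers the number of *Smad4* copies in the ectoderm of mutants. Its effect and that of the loss in mesenchyme cannot be told apart here.

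Between 34066930 and 61691258 reads were counted on genes per embryo. *Smad4* transcripts fell to 0.247 of the WT level at E10.0 and 0.223 at E10.5 (edgeR's exact test, adjusted *P*=3.49e-98 and 2.82e-112), and all mutant embryos lay below all WT embryos at both stages. The mutant embryos of replicates 4 and 5 stood apart at both stages, since rRNA precursor reads made up 1.72% to 8.05% of their counts against 0.151% to 0.478% in the other 10 embryos. No WT embryo is of that kind, so that the summaries of the 10 genes are also given without these 4 embryos. Such summaries, named replicates 1 to 3, keep every WT embryo. Their mutants are replicates 1 and 3 (E10.0) or 1 and 2 (E10.5). Values are counts per 1000000 reads (CPM) after TMM normalization of library sizes.

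The 10 transcripts were present in every embryo, from 3.38 CPM for *En1* in 1 mutant to 67.9 CPM for *Trp63* in 1 WT embryo. Together they took 291 to 382 CPM in WT and 232 to 370 CPM in mutants at E10.0, and 276 to 283 CPM in WT and 198 to 277 CPM in mutants at E10.5. Levels per kilobase of exon allow genes to be ranked. In WT buds at E10.0, *Cldn6* was the highest with 31.0±3.99 CPM per kb (SD, n=3), followed by *Epcam* (20.9±1.70), *Krt18* (17.7±0.924), *Krt8* (12.6±1.65) and *Cdh1* (11.4±1.78). Below these came *Sp6* (8.64±2.04), *Trp63* (6.78±1.26), *Sp8* (4.95±1.12), *Esrp1* (4.65±0.630) and *En1* (1.73±0.526). The ranges of neighbours in this order did not overlap for *Cldn6* and *Epcam*, *Epcam* and *Krt18*, *Krt18* and *Krt8*, and *Esrp1* and *En1*. They overlapped for the other 5 pairs of neighbours, from *Krt8* and *Cdh1* down to *Sp8* and *Esrp1*. *Cldn6*, *Epcam*, *Krt18* and *En1* kept ranks 1, 2, 3 and 10 in all 4 groups. Markers of other epithelia were low beside these. The sum of 6 nephric duct genes was 2.51 to 7.01 CPM and that of 6 endodermal genes 4.77 to 18.4 CPM. The defining factors *Pax2* and *Pax8* (nephric duct) and *Foxa1* and *Foxa2* (endoderm) reached at most 0.295, 0.242, 0.283 and 0.0273 CPM. Other genes of these lists were higher, with up to 5.0 CPM of *Gata3*, 2.19 CPM of *Ret*, 11.8 CPM of *Shh*, which limb mesenchyme also makes, 3.2 CPM of *Sox17*, which endothelium also makes, and 7.1 CPM of *Afp* in 1 E10.5 mutant. Sums of different genes do not measure the shares of tissues, and the part of these tissues in the levels of the 10 genes was not tested.

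**Figure D1:**
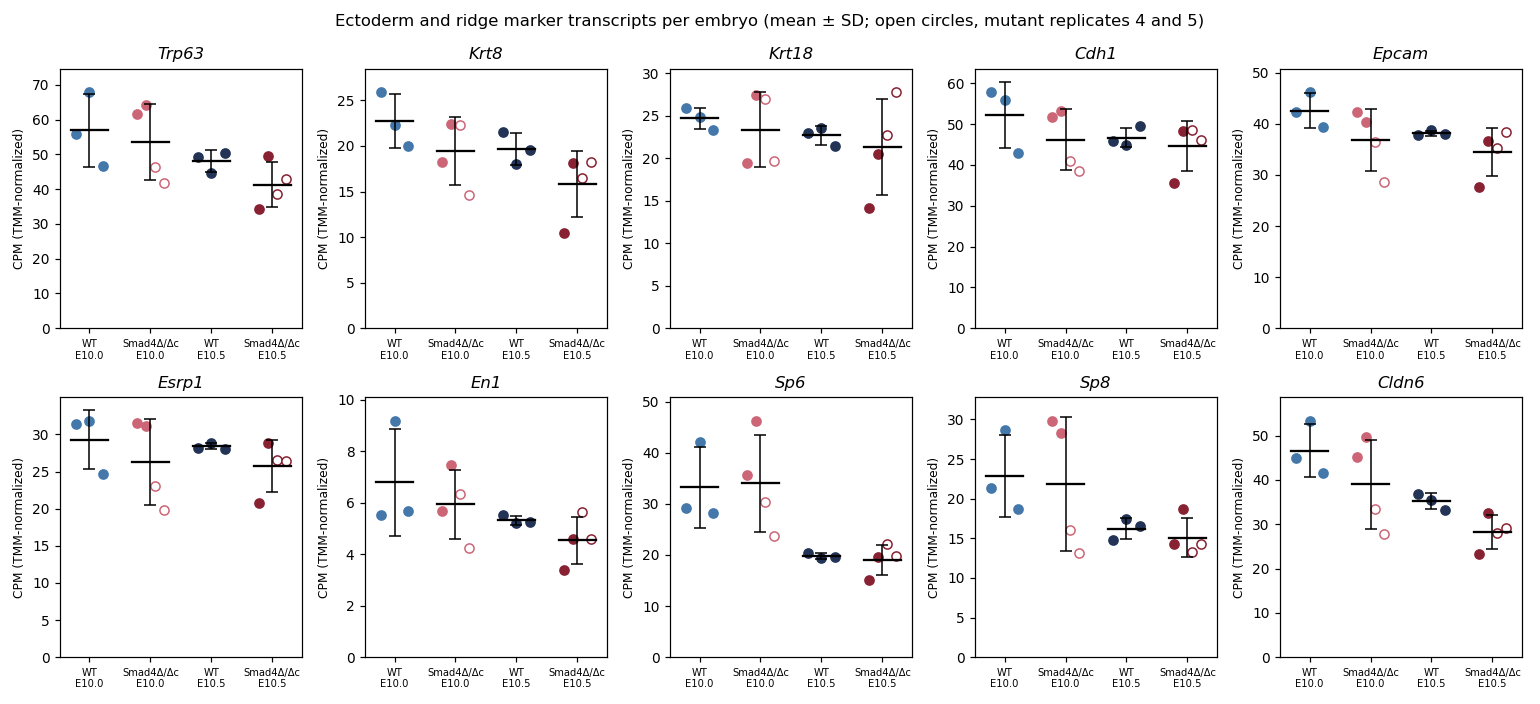
Levels of the 10 transcripts in every embryo, on linear axes from 0 in CPM. Circles are embryos, open for mutant replicates 4 and 5, and lines with bars are the group mean and SD (n=3 WT, n=4 *Smad4*Δ/Δc). *Sp6* lies at 23.7 CPM or more in all E10.0 embryos and at 22.1 CPM or less in all E10.5 embryos, whereas the genotypes overlap in every panel except *Cldn6* at E10.5.

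The 4 structural genes of the epithelium with a RefSeq promoter window (GRCm38.p6) are shown as the members that build its junctions and filaments. E-boxes of the type bound by Snail and Zeb repressors (CACCTG, or CAGGTG on the other strand) and GC boxes of the type bound by Sp factors (GGGCGG, or CCGCCC on the other strand) were searched in the 250 bases before the start, and both are in capitals; the 2 kinds do not overlap. The windows are chr15:102004343-102004592 (minus strand) for *Krt8*, chr15:102027966-102028215 (plus) for *Krt18*, chr17:87635729-87635978 (plus) for *Epcam* and chr17:23679115-23679364 (plus) for *Cldn6*.
Krt8: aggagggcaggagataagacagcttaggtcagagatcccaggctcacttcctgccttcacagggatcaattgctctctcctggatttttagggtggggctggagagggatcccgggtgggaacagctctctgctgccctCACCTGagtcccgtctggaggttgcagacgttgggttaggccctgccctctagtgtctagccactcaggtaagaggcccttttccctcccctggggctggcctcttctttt
Krt18: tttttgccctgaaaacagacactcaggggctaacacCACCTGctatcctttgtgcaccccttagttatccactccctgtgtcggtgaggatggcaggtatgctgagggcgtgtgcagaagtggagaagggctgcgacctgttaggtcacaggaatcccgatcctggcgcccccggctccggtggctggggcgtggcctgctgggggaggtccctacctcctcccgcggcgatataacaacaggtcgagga
Epcam: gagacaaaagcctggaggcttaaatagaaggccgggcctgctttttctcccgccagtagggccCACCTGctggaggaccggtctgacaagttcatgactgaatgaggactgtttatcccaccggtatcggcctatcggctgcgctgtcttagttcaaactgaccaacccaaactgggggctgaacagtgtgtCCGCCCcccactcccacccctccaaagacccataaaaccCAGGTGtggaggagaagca
Cldn6: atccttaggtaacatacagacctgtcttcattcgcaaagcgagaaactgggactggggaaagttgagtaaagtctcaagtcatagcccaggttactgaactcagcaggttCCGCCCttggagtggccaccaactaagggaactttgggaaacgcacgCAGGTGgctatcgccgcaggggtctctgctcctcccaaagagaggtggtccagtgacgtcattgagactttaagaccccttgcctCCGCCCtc
*Epcam* had 2 E-boxes, which begin 187 and 19 bases before the start, and *Krt8*, *Krt18* and *Cldn6* had 1 each, at 111, 214 and 93 bases. An E-box of this type was found in 17.2% of all 32851 mouse windows of this length. GC boxes were found in *Cldn6* (2) and *Epcam* (1) and in 32.7% of all windows. The window of *En1* held neither, and of 3 windows of *Sp8* none held the E-box and 1 held a GC box. In all, 6 of the 10 genes matched the promoter table. These letters are a description of the windows and not evidence of binding.

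In the comparison of genotypes at E10.0, no gene of the 10 was a DEG (edgeR's exact test, thresholds of 0.1 for the FDR and 1.2 for the fold change), against 6.61% of all genes tested. No gene reached an unadjusted *P* under 0.05 either, by the exact test, the edgeR quasi-likelihood test without a replicate block or DESeq2. Log2 fold changes of mutants against WT ran from -0.26 (*Cldn6*) to 0.04 (*Sp6*), with a median of -0.16, and 9 of 10 were below 0. Over all genes tested the median was -0.02 and 54.2% were below 0. The 10 genes varied together from embryo to embryo (median r=0.74 of deviations between pairs of them). A count of them, here and below, is therefore not a count of independent genes. The genotypes overlapped for all 10 genes, whereas 9.78% of all genes were lower in every mutant embryo than in every WT embryo. With only the embryos of replicates 1 to 3, the median was 0.03 and 4 of 10 were below 0. In whole buds, fewer ectodermal cells and less RNA per ectodermal cell cannot be told apart.

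At E10.5, again no gene of the 10 was a DEG, against 3.73% of all genes tested. All 10 were below WT on average, from -0.05 (*Sp6*) to -0.32 (*Krt8* and *Cldn6*) on the log2 scale with a median of -0.15, against a median of -0.01 and 53.3% below 0 over all genes. With only replicates 1 to 3, 9 of 10 were below 0 and the median was -0.22. Without E10.5 mutant replicate 1, which was low in all 10 genes, 7 of 10 were below 0 and the median was -0.06. *Cldn6*, a claudin of embryonic tight junctions (mm9, chr17:23816332-23819413), was the gene with an unadjusted *P* under 0.05 here (log2 fold change -0.32±0.165 SE, edgeR's exact test, *P*=0.0461, adjusted *P*=0.472). It was measured at 36.8, 35.5 and 33.3 CPM in WT embryos and at 23.2, 32.6, 28.1 and 29.2 CPM in mutant embryos. The genotypes did not overlap for *Cldn6*, as for 6.4% of all genes in this direction, and they overlapped for the other 9. By the quasi-likelihood test without a replicate block and by DESeq2, 0 of the 10 genes had an unadjusted *P* under 0.05. For no gene of the 10 was a difference of the genotype effect between stages called (interaction term, edgeR's quasi-likelihood test, 0 of 10 called and 0 of 10 with an unadjusted *P* under 0.05, against 0.186% called of all genes). The median interaction term was -0.04 with 7 of 10 below 0, and with only replicates 1 to 3 it was -0.33 with 10 of 10 below 0 and again none called.

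**Figure D2:**
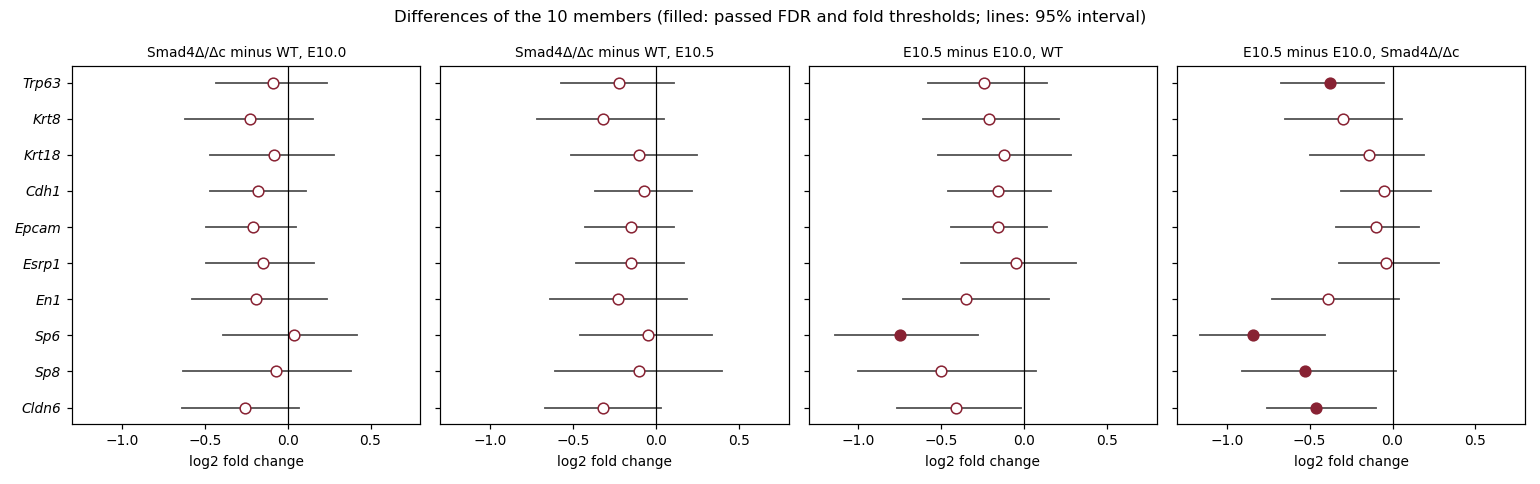
Log2 fold changes of the 10 genes in the 4 comparisons, with 95% intervals. Filled circles are called genes (FDR 0.1, 1.2-fold). None is filled in either genotype comparison, *Sp6* is filled in both stage comparisons, and *Trp63*, *Sp8* and *Cldn6* are filled in mutants only, without a called interaction.

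The intervals show what these samples could have missed. The cell adhesion genes were measured most tightly. For *Epcam* (mm9, chr17:88035319-88050446), an adhesion molecule of epithelia, the 95% interval of the log2 difference between genotypes was -0.49 to 0.05 at E10.0 and -0.43 to 0.11 at E10.5. For *Cdh1*, which encodes E-cadherin of adherens junctions (mm9, chr8:109127251-109194146), it was -0.47 to 0.11 and -0.37 to 0.22. *Sp8*, which encodes a zinc-finger factor needed for ridge *Fgf8* (mm9, chr12:120084802-120091051), had the widest intervals, -0.63 to 0.38 and -0.61 to 0.40. A loss of 1.5-fold therefore lay inside the intervals of *Sp8*, *Krt8* and *Cldn6* at both stages and of *En1* at E10.5, and outside the intervals of *Trp63*, *Krt18*, *Cdh1*, *Epcam*, *Esrp1* and *Sp6* at both stages.

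From E10.0 to E10.5 all 10 were lower on average in both genotypes, with a median log2 change of -0.23 in WT and -0.34 in mutants, against -0.01 in each over all genes. *Sp6*, which encodes a zinc-finger factor of the ridge and ectoderm that acts with *Sp8* (mm9, chr11:96874708-96886048), fell in both. Its level was 29.1, 42.2 and 28.2 CPM in WT embryos at E10.0 and 20.4, 19.4 and 19.5 CPM at E10.5. In mutant embryos it was 35.6, 46.2, 30.3 and 23.7 CPM at E10.0 and 15, 19.6, 22.1 and 19.7 CPM at E10.5. Stages did not overlap in either genotype. The log2 change was -0.75±0.202 SE in WT and -0.84±0.175 in mutants (edgeR's exact test, adjusted *P*=0.00409 and 2.28e-05), a fall to 0.595 and 0.561 of the earlier level. In mutants *Sp6* was called in every setting run, including without any single embryo, with the replicate number as a block (adjusted *P*=0.0384 by the quasi-likelihood test) and with only replicates 4 and 5 (-0.36, edgeR's exact test, adjusted *P*=0.0415). In WT the call was lost without E10.0 replicate 2 (-0.54, edgeR's exact test, adjusted *P*=0.144). The exons of *Sp6* overlap those of an antisense gene, *Gm11532*, and the libraries did not keep the strand, so that reads of the overlap cannot be assigned to one of them.

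In WT, *Sp6* was the 1 DEG among the 10 genes, and 4.74% of all genes were called lower (10.1% in either direction). *Epcam*, *Sp6*, *Sp8* and *Cldn6* were lower in all 3 later embryos than in all 3 earlier ones, 4 of 10, against 20.4% of all genes. *Sp8* and *Cldn6* had log2 changes of -0.50±0.253 SE and -0.41±0.177 (edgeR's exact test, *P*=0.0368 and 0.0171, adjusted *P*=0.202 and 0.132). *Sp8* was at 21.4, 28.7 and 18.7 CPM in WT embryos at E10.0 and at 14.8, 17.4 and 16.5 CPM at E10.5. *Cldn6* was at 45, 53.3 and 41.6 CPM at E10.0 and at 36.8, 35.5 and 33.3 CPM at E10.5. Both were called when only the WT groups entered the fit (edgeR's exact test, adjusted *P*=0.00950 and 0.00245).

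In mutants 4 of 10 genes were called lower, against 8.4% of all genes (19.2% in either direction). Besides *Sp6* these were *Cldn6* (-0.46±0.153 SE), *Trp63* (-0.38±0.146) and *Sp8* (-0.53±0.219), with adjusted *P*=0.0133, 0.0436 and 0.0521 by edgeR's exact test. *Trp63*, the master regulator of stratified epithelia (mm9, chr16:25683849-25892188), was at 61.7, 64.1, 46.5 and 41.8 CPM in mutants at E10.0 and at 34.2, 49.4, 38.6 and 43.0 CPM at E10.5. *Cldn6* was at 45.1, 49.6, 33.5 and 27.8 CPM and then at 23.2, 32.6, 28.1 and 29.2 CPM. *Sp8* was at 29.8, 28.3, 16.0 and 13.2 CPM and then at 14.3, 18.7, 13.3 and 14.3 CPM. In each case the first 2 E10.0 embryos (replicates 1 and 3) lay above all E10.5 mutants, and the last 2 (replicates 4 and 5) lay within the E10.5 range or less than 1 CPM outside it. Without E10.0 mutant replicate 3 only 1 of the 10, *Sp6*, was called, without replicate 1 of either stage 2 were called, and without E10.0 mutant replicate 5 the number was 6. *Sp6* was the gene of the 10 whose stages did not overlap in mutants, against 8.91% of all genes in this direction.

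The 2 kinds of mutant embryo gave different values for stage, a difference that was not itself tested. With only replicates 1 to 3 in the fit, 8 of 10 genes were called lower in mutants, against 7.79% of all genes. The median log2 change was -0.55, and *Cdh1* (-0.32) and *Esrp1* (-0.33) were not called (edgeR's exact test, adjusted *P*=0.133 and 0.132). This fit compared only 2 mutant embryos a stage. Of these, E10.0 replicate 3 was high in all 10 genes (mean log2 deviation from its full group 0.30). E10.5 replicate 1 was low in all 10 (-0.33). The other mutants of this fit, E10.0 replicate 1 and E10.5 replicate 2, were at 0.14 and 0.15. The 8 calls therefore rest on few embryos. With only replicates 4 and 5, *Sp6* was called lower (8.67% of all genes) while *Cdh1* (0.26) and *Esrp1* (0.32) were called higher (9.2% of all genes; edgeR's exact test, adjusted *P*=0.0283 and 0.0355), and the median of the 10 was -0.06. Mutant embryos of the 2 stages share replicate numbers, but these are not shown to mark pairs. With that number as a block *Sp6* alone was called (6.73% of all genes were called lower). *Cldn6*, *Trp63* and *Sp8* then had log2 changes of -0.39, -0.37 and -0.43 (edgeR's quasi-likelihood test, adjusted *P*=0.136, 0.170 and 0.167). With rRNA precursor reads left out of the counts, the 4 genes called in mutants were again *Cldn6*, *Sp6*, *Sp8* and *Trp63*. That fit removes only these reads from the counts. The part that differences between the 2 kinds of mutant embryo had in these calls was not tested.

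The other 6 genes did not pass the test for stage in either genotype when all embryos entered the fit. *Krt8* and *Krt18*, which encode the partner keratins of simple epithelia and lie next to each other (mm9, chr15:101827142-101834773 and chr15:101858647-101862457), had log2 changes of -0.21 and -0.12 in WT and of -0.30 and -0.14 in mutants. *En1*, the homeobox gene of the ventral ectoderm (mm9, chr1:122498995-122505873), had changes of -0.35 and -0.39. Its level was 5.51, 9.17 and 5.67 CPM in WT at E10.0 and 5.52, 5.22 and 5.23 CPM at E10.5, so that the WT mean at E10.0 rested on 1 embryo. *Epcam* and *Cdh1* had -0.16 each in WT, and -0.10 and -0.05 in mutants. *Esrp1*, which encodes an epithelial splicing regulator (mm9, chr4:11259080-11313930), differed least, by -0.05 and -0.04. It was at 31.4, 31.8 and 24.7 CPM in WT at E10.0 and at 28.2, 28.8 and 28.1 CPM at E10.5. The exons of *Esrp1* also overlap those of an antisense gene, *Gm16652*.

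Beyond group means, the 10 transcripts moved up and down together from embryo to embryo. With every embryo taken as its deviation from its group mean, the median Pearson correlation over the 45 pairs of genes was 0.74 across the 14 embryos, from 0.05 (*Krt18* with *Sp8*) to 0.94 (*Cdh1* and *Cldn6*, each with *Esrp1*). These values share libraries and depth and are a description. For the 12383 other genes, the median correlation of deviations with the mean of the 10 was 0.01. For the other lists of these tissues it was 0.76 (29 epithelial genes), 0.75 (8 ectodermal Wnt genes) and 0.68 (10 ridge genes). The shared movement was therefore not particular to the 10. *Cldn6*, *Epcam* and *Esrp1* followed the mean of the other 9 most closely (0.94, 0.93 and 0.93) and *Krt18* least (0.52).

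In terms of embryos, E10.0 mutant replicate 5 was low in all 10 genes, with a mean log2 deviation of -0.38, and E10.0 mutant replicate 3 was high in all 10 (0.30). At E10.5, mutant replicate 1 was low in all 10 (-0.33) and the other 3 mutants lay between 0.07 and 0.15. E10.0 WT replicate 3 was low in all 10 (-0.20) and WT replicate 2 high in 9 (0.20). WT embryos at E10.5 deviated by -0.01 to 0.02 and were the most alike. The rRNA precursor share was 1.72% in E10.0 mutant replicate 5 and 0.331% in E10.5 mutant replicate 1. At E10.0, mutant replicates 4 and 5 were at -0.06 and -0.38, against 0.14 and 0.30 in replicates 1 and 3. At E10.5, mutant replicates 4 and 5 were at 0.07 and 0.11, against -0.33 and 0.15 in replicates 1 and 2. The part of the kind of embryo in these deviations was not tested. For markers of other tissues, the median correlations of deviations with the mean of the 10 were -0.30 for 8 mesenchymal, -0.38 for 5 endothelial and 0.23 for 4 blood genes.

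**Figure D3:**
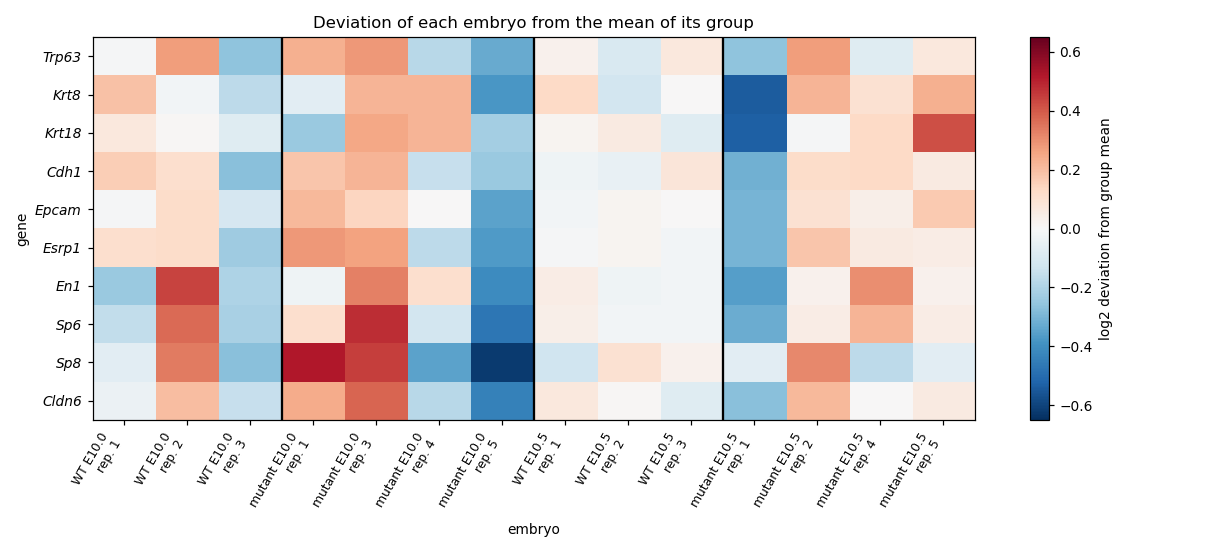
Log2 deviation of each embryo (columns, grouped by genotype and stage) from the mean of its group for each of the 10 genes (rows); red is above and blue below the group mean. Whole columns share a color, as in E10.0 mutant replicates 3 (mean 0.30) and 5 (-0.38) and in E10.5 mutant replicate 1 (-0.33).

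Because the genes shared this movement, each was also expressed relative to the mean of the other 9 in the same embryo (log2 differences, a description with no test). *Sp6* went from 0.17 to -0.32 in WT and from 0.36 to -0.19 in mutants, without overlap between stages. In WT, *Sp8* (from -0.41 to -0.63) and *Cldn6* (from 0.72 to 0.59) also fell without overlap, while their stages overlapped in mutants. On this scale *Esrp1* rose from -0.01 to 0.25 in WT and from -0.03 to 0.28 in mutants, without overlap. *Epcam* rose from 0.59 to 0.72 and from 0.52 to 0.75, again without overlap. A gene that changes little rises on this scale when the others fall. The log2 changes of *Esrp1* itself were -0.05 in WT and -0.04 in mutants. *Cdh1* rose relative to the others from 0.87 to 1.15 in mutants without overlap, while in WT the stages overlapped (0.90 and 1.04). *Cldn6* was the gene whose genotypes did not overlap on this scale, at E10.5, with 0.51 to 0.65 in WT and 0.35 to 0.51 in mutants at 2 decimals. The ratio of *Krt18* to *Krt8* per kilobase was 1.29 to 1.68 in WT and 1.37 to 1.95 in mutants, and its 2 highest values were in mutant replicates 4 and 5 at E10.5.

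Among the genes whose level was most like the mean of the 10 across the 14 embryos were *Nxt1* (Pearson r=0.953), *Bambi* (0.952), *Grhl2* (0.952), *Susd4* (0.949), *Ap1m2* (0.947), *F11r* (0.930), *Rps14* (0.923), *Hoxc8* (0.921) and *St14* (0.920). Of these, *Grhl2* (a grainyhead transcription factor), *Ap1m2* (an adaptor subunit of polarized epithelia) and *St14* (a membrane protease) were in the list of 31 epithelial genes. *F11r* encodes a junctional adhesion molecule.

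Lists of other genes of these tissues gave the setting. Of all genes tested, 6.61% were called between genotypes at E10.0 and 3.73% at E10.5, in either direction. Of 10 ridge genes tested, 1 was lower and none higher in mutants at E10.0 and 1 was higher at E10.5. *Jag2*, a Notch ligand of the ridge, fell by 0.49 on the log2 scale at E10.0 (±0.127 SE, edgeR's exact test, adjusted *P*=0.0131), with 21.2 to 27.3 CPM in WT and 15.3 to 18.7 CPM in mutants. Its call was lost without E10.0 WT replicate 2 (-0.37). *Fgf9* rose at E10.5 from 2.0 to 2.60 CPM in WT to 4.13 to 4.89 CPM in mutants (log2 fold change 0.97, edgeR's exact test, adjusted *P*=0.000149). *Fgf8*, the main ridge signal, had log2 differences of 0.04 and 0.08 between genotypes, with 95% intervals of -0.31 to 0.40 and -0.30 to 0.41. Its level was 15.1 to 19.8 CPM in WT and 15.1 to 18.8 CPM in mutants at E10.0.

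Among 8 ectodermal Wnt genes, *Wnt4* fell by 0.47 at E10.5 (edgeR's exact test, adjusted *P*=0.0977), a call that was lost with only replicates 1 to 3 (-0.45, adjusted *P*=0.228) and in 10 of 14 fits without a single embryo. *Wnt7a*, the dorsal signal of the ectoderm, did not pass in either comparison with all embryos, with log2 differences of -0.42 and -0.48 (edgeR's exact test, adjusted *P*=0.140 and 0.148). It was at 9.51 to 10.8 CPM in WT and at 5.19 to 8.17 CPM in mutants at E10.5, without overlap. It was called in replicates 1 to 3 alone at E10.5 (-0.61, edgeR's exact test, adjusted *P*=0.0521) and not at E10.0 (-0.24). It was also called at E10.0 without mutant replicate 3 of that stage or replicate 1 of E10.5, and at E10.5 without E10.0 mutant replicate 5. Of 29 epithelial genes tested, 4 were called lower in mutants at E10.0 and none at E10.5 (3 with an unadjusted *P* under 0.05). The 4 were the claudins *Cldn3* (-0.72), *Cldn4* (-0.51) and *Cldn7* (-0.44) and the basal keratin *Krt5* (-0.40), with adjusted *P*=0.0672, 0.0655, 0.0914 and 0.0485 by edgeR's exact test. None of the 4 was called by the quasi-likelihood test. Among replicates 1 to 3 alone the claudins had log2 differences of -0.63, -0.29 and -0.25 and were not called (edgeR's exact test, adjusted *P*=0.156, 0.308 and 0.289), whereas *Krt5* (-0.39) was. The calls of *Cldn3*, *Cldn4*, *Cldn7* and *Krt5* were lost in 5, 6, 11 and 5 of 14 fits without a single embryo, in each case including every E10.0 WT embryo and E10.0 mutant replicates 1 and 5. *Grhl2* had log2 differences of -0.26 and -0.23 (edgeR's exact test, adjusted *P*=0.407 and 0.771).

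For stage, 3 of 10 ridge genes fell and 2 rose in WT, and 5 fell and 2 rose in mutants. Of 8 Wnt genes 2 fell and 2 rose in WT, and 2 fell and 1 rose in mutants. Of 29 epithelial genes 3 fell and 2 rose in WT, and 4 fell and 7 rose in mutants. Of all genes tested, 10.1% were called by stage in WT and 19.2% in mutants, in either direction. *Wnt7a* fell by 0.92 in WT and by 0.98 in mutants (edgeR's exact test, adjusted *P*=5.43e-05 and 1.37e-07), and *Grhl2* fell by 0.47 and 0.43 (adjusted *P*=0.0875 and 0.0348). The WT call of *Grhl2* was lost in 8 of 14 fits without a single embryo. Its mutant call was lost without E10.0 replicate 3 or E10.5 replicate 1, and with the replicate number as a block (-0.37, edgeR's quasi-likelihood test, adjusted *P*=0.188). *Jag2* fell by 0.72 and 0.49 and *Cldn7* by 0.60 and 0.57 (edgeR's exact test, adjusted *P* of at most 0.0142), and the WT call of *Cldn7* was lost without replicate 2 of either stage. *Grhl2* and *Cldn7* had changes, in replicates 1 to 3 alone, of -0.77 and -0.88 in mutants. *Tfap2c*, an AP-2 factor of the ectoderm, fell by 0.75 in both, and *Krt15*, a basal keratin, rose from 0.409 to 0.949 CPM over all E10.0 embryos to 1.47 to 3.46 CPM at E10.5; these 2 were singled out after their values were seen. *Fgf9* rose by 0.99 and 1.47. The 2 comparisons of stage share no embryo.

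**Figure D4:**
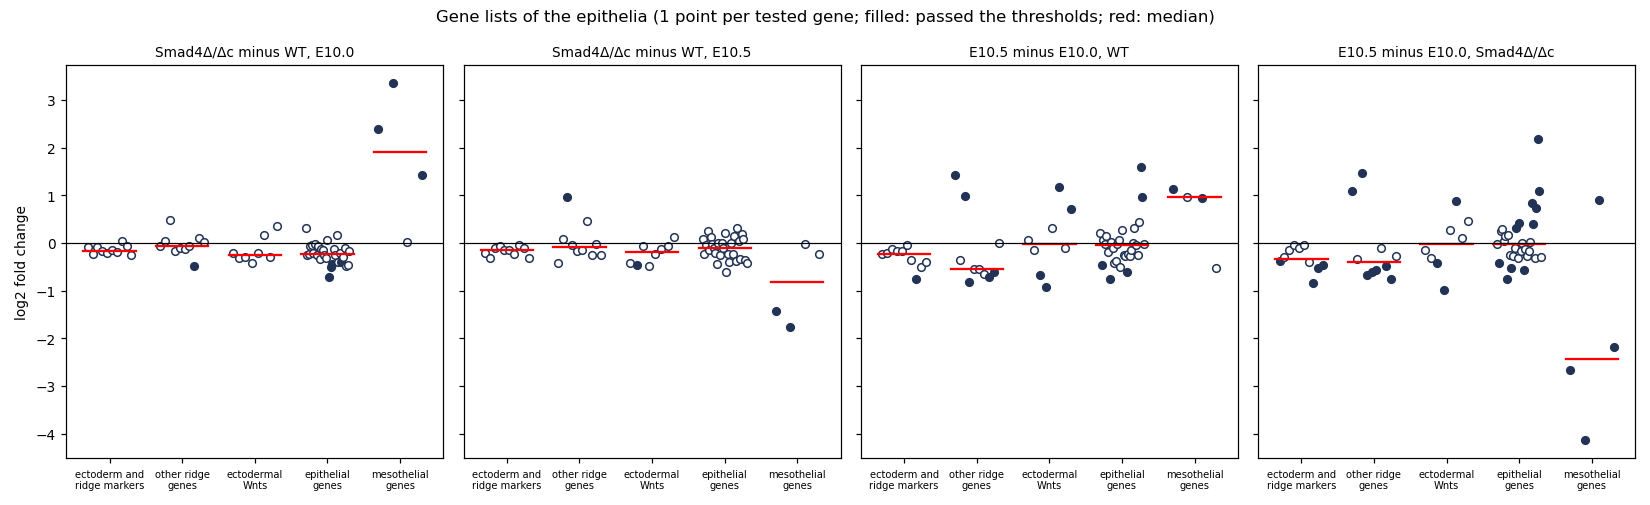
Log2 fold changes of every tested gene of 5 lists in the 4 comparisons (1 point per gene; filled points passed the thresholds; red lines are medians). The 10 ectoderm and ridge markers lie close to 0 in both genotype panels with medians of -0.16 and -0.15, and of the 4 mesothelial genes *Wt1* (2.38 and -1.42) and *Upk3b* (3.35 and -1.76) lie far from 0 on opposite sides at the 2 stages.

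Mesothelium, which covers the adjoining body wall, is a further epithelium that the dissected tissue could hold, and mesothelial cells also make simple keratins. Of 4 mesothelial genes tested, 3 were higher in mutants at E10.0 and 2 were lower at E10.5, against 6.61% and 3.73% of all genes called in either direction. The 3 calls at E10.0 were also made with only replicates 1 to 3, whereas *Wt1* (-0.84) and *Upk3b* (-1.18) were not called at E10.5 (edgeR's exact test, adjusted *P*=0.193 and 0.36). The call of *Upk3b* at E10.5 was also lost in 4 of 14 fits without a single embryo. *Wt1* was at 0.880 to 1.88 CPM in WT and 5.06 to 10.1 CPM in mutants at E10.0, and at 2.23 to 3.96 CPM in WT and 0.455 to 1.79 CPM in mutants at E10.5. *Upk3b* was at 0.110 to 0.715 CPM in WT and 2.83 to 8.32 CPM in mutants at E10.0. The summed level of 5 detected mesothelial genes was 2.95 to 4.84 CPM in WT and 10.8 to 23.7 CPM in mutants at E10.0, and 4.99 to 7.65 and 2.41 to 4.91 CPM at E10.5. The 10 ectoderm markers summed to more than that in every embryo, but sums of different genes do not measure the shares of tissues. The deviations of the 10 markers had a median correlation of 0.28 with those of the mesothelial genes. The part of mesothelium in the levels of the 10 markers was not tested. *Lrrn4* was the third mesothelial gene called at E10.0 (log2 fold change 1.42).

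Of the remaining lists, 4 of 8 mesenchymal genes were called lower in mutants at E10.0, namely *Prrx2* (-1.01), *Twist1* (-0.34), *Tbx5* (-0.31) and *Prrx1* (-0.29). The shares of all genes called in either direction were 6.61% at E10.0 and 3.73% at E10.5. At E10.5, 3 of 8 were called lower, *Prrx2* (-0.83), *Twist1* (-0.36) and *Prrx1* (-0.32), and *Pdgfra* (0.32) was called higher. Of 2 nephric duct genes that passed the filter, *Ret* (0.88) was called higher at E10.0 and *Gata3* (-0.77) lower at E10.5. Of 4 muscle precursor genes, *Myf5* (1.26) was called higher at E10.0. In the fit of replicates 1 to 3, *Prrx1* (-0.24 and -0.21) was not called at either stage nor *Twist1* (-0.26) at E10.0, and *Tbx5* was at -0.47. In fits without a single embryo, the calls of *Prrx1* were lost in 9 and 5 of 14 at the 2 stages, that of *Tbx5* in 5, *Pdgfra* in 10, *Ret* in 7 and *Gata3* in 1. No gene was called between genotypes among 2 endodermal, 4 blood and 5 endothelial genes.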

How the data were processed

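RNA-seq was done on the forelimb buds of 14 embryos. The authors aligned single-end reads to mm9 with TopHat2 2.0.13, kept unique alignments and counted reads by gene symbol with HTSeq, ignoring strand. The deposited values are raw counts; reads outside genes (6.18% to 9.86%) and ambiguous reads (1.49% to 1.75%) were left out of the library sizes. Members and lists were chosen with earlier results of these data known.

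Following the study's methods, 1041 symbols of the X, Y and mitochondrial chromosomes were removed, and genes reaching 1 CPM in 3 or more of 14 samples were tested with edgeR 4.0.16 (TMM, common and tag-wise dispersion with 10 prior degrees of freedom over all samples, exact test, Benjamini-Hochberg adjustment over all 12393 genes). The thresholds for a call were 0.1 for the FDR and 1.2 for the fold change. The interaction of stage and genotype was tested by edgeR's quasi-likelihood test, with no minimum fold. Standard errors and 95% intervals come from limma 3.58.1 on log2(CPM + 0.5), which understates changes of low genes. The statistical scripts were tested on simulated data.

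Named genes are the 10 members, *Smad4*, the genes of the other lists called between genotypes (at most 4 a list and comparison, smallest *P* first), *Fgf8*, *Wnt7a*, *Grhl2* and *Wt1*, and the 10 other genes most correlated with the mean of the members, of which 1 is not reported here. Deviations of same-numbered mutant embryos at both stages correlated over all genes (r=0.249 to 0.584, 3 pairs). Differently numbered mutants with a like rRNA precursor share also correlated (0.101 to 0.35), while those of unlike share did not (-0.548 to -0.155). The numbers are therefore not shown to mark pairs. Deviations of same-numbered WT embryos did not correlate (-0.261 to -0.067), nor did those of the genotypes (mean -0.004 and -0.161, 2 pairs each). The alternatives were DESeq2 1.42.0, the quasi-likelihood test with and without the replicate number as a block, other scalings, filters and thresholds, and leaving out embryos; the fit of mutant replicates 4 and 5 alone was chosen after seeing the data. Library sizes of 34066930 to 61691258 counts gave at least 141 reads for each member in each embryo. Software was R 4.3.3, Python 3.11.15 and matplotlib 3.10.9. Lengths and mm9 positions are from the NCBIM37 annotation, promoters from RefSeq (GRCm38.p6). The sources differ on the strain and the cross of the mothers. The paper's other assays were not used here.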

Additional observations from a re-analysis of the deposited data

Results flagged for a closer look

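In the mutant groups of 4 embryos, the lowest or highest embryo of no gene of the 10 markers stood far enough from the others to pass Dixon's test at the 95% level, which chance passes in about 1 in 20 groups. Of the other genes described, the mesothelial genes *Wt1* and *Upk3b* had genotype differences that changed with stage, with interaction terms of -3.75 and -5.05 on the log2 scale (edgeR's quasi-likelihood test, adjusted *P*=0.0190 and 0.0366). With only replicates 1 to 3 the terms were -3.24 and -4.75 (adjusted *P*=0.0667 and 0.256, edgeR's quasi-likelihood test). Neither was called when replicate number entered as a block (adjusted *P*=0.314 and 0.417, edgeR's quasi-likelihood test).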

How the results depend on the processing

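Scaling, the low-count filter, DESeq2, the quasi-likelihood test without a block and the thresholds left the 10 markers with 0 calls between genotypes, 1 in WT by stage and 3 or 4 in mutants by stage. The mutant replicates 4 and 5 mattered more. With only replicates 1 to 3, *Trp63* (0.16), *Cdh1* (0.02), *Esrp1* (0.11), *Sp8* (0.36) and *Cldn6* (0.04) turned positive between genotypes at E10.0, as did *Sp8* at E10.5 (0.03), and *Fgf8* turned negative there (-0.16); 3 markers were called by stage in WT and 8 in mutants. With only replicates 4 and 5, *Krt18* (0.13), *Cdh1* (0.26), *Epcam* (0.19) and *Esrp1* (0.32) turned positive by stage. The number as a block, where numbers are not shown to pair the genotypes and only 2 numbers are shared, gave 2 called markers at E10.0, *Sp6* (0.50) and *Sp8* (0.54), both higher in mutants (edgeR's quasi-likelihood test, adjusted *P*=0.0699 and 0.0359); *Trp63* (0.30), *Cdh1* (0.07), *Epcam* (0.02), *Esrp1* (0.17), *En1* (0.22), *Cldn6* (0.13) and *Grhl2* (0.03) also turned positive there, as did *Sp8* at E10.5 (0.03), while *Fgf8* became -0.30. With it 3 markers (*Cldn6*, *Epcam* and *Krt18*) had an unadjusted *P* under 0.05 at E10.5 and 4 (*Cldn6*, *En1*, *Sp6* and *Sp8*) for the interaction, whose median over the 10 was -0.44. The block left 1 called marker by stage in mutants, and it called 1990 genes at E10.0, 1899 by stage in WT and 0 interactions. With only the compared groups in the fit, 3 markers and 1932 genes were called by stage in WT. For all genes, 819 at E10.0 became 2018 with replicates 1 to 3 and 506 at an FDR of 0.05, and 23 interactions became 6 and 9, 87 by DESeq2 and 39 without a filter. The cause of these shifts was not tested.

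Without single embryos, called markers ranged from 0 to 2 by stage in WT (0 without E10.0 replicate 2; 2 without mutant E10.0 replicate 3 or 5) and from 1 to 6 in mutants (1 without E10.0 replicate 3, 2 without E10.0 replicate 1 or E10.5 replicate 1, 6 without E10.0 replicate 5), and were 0 between genotypes. Genes called ranged from 254 to 1062 at E10.0, from 286 to 516 at E10.5, from 484 to 1515 by stage in WT and from 7 to 34 for the interaction. They moved over 1.5 times at E10.0 without WT replicate 3 (254) or mutant replicate 5 (494), at E10.5 without WT replicate 2 (286), and by stage in WT without E10.0 replicate 2 (484) or 3 (827) or E10.5 replicate 2 (823) or 3 (512). Log2 values that crossed 0 ranged at E10.0 from -0.20 to 0.06 (*Trp63*), -0.17 to 0.01 (*Krt18*), -0.32 to 0.09 (*En1*), -0.15 to 0.25 (*Sp6*), -0.24 to 0.13 (*Sp8*) and -0.04 to 0.16 (*Fgf8*). At E10.5 they ranged from -0.25 to 0.07 (*Krt18*), -0.11 to 0.04 (*Cdh1*), -0.13 to 0.06 (*Sp6*) and -0.02 to 0.24 (*Fgf8*). By stage they ranged in mutants from -0.29 to 0.02 (*Krt18*), -0.13 to 0.05 (*Cdh1*) and -0.16 to 0.06 (*Esrp1*), and in WT from -0.15 to 0.02 (*Esrp1*) and -0.11 to 0.07 (*Krt5*). With 3 or 4 embryos a group, the intervals given with the results set what could be seen. Each of the 10 markers had at least 141 reads in every embryo, and the part of sequencing depth was not tested.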
